A study of Mus musculus with 6 samples.

Results

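Of 23337 gene symbols in the count table, 5 were followed: Ch25h, Cyp27a1, Cyp7b1 and Hsd3b7, which encode enzymes that make or break down oxysterols, and Gpr183, which encodes the oxysterol receptor EBI2. They were chosen by name as the pathway that makes, clears and senses oxysterols. All 5 had a row in the table, and 4 of them, all but Cyp7b1, passed the filter on low counts and were tested among 12923 genes.

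Oxysterols are oxidised forms of cholesterol. Ch25h adds a hydroxyl group at the end of the side chain to give 25-hydroxycholesterol, a product known in macrophages for holding back the activation of SREBP transcription factors, and Cyp27a1, a mitochondrial P450 enzyme, makes 27-hydroxycholesterol. Both products can act as ligands of the liver X receptors (LXRs). Cyp7b1 adds a further hydroxyl group to either one, which in the case of 25-hydroxycholesterol gives the main ligand of Gpr183, and Hsd3b7 oxidises these dihydroxylated sterols and so removes the ligand on the route to bile acids. Gpr183 is a G protein-coupled receptor that guides B cells, dendritic cells and other leukocytes along gradients of this ligand.

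The cells were bone marrow-derived macrophages, grown from mouse bone marrow in 10% M-CSF for 7 days and then exposed to LPS, the endotoxin of Gram-negative bacteria, at 100 ng/ml for 8 h. The 3 genotypes were sequenced, with 2 libraries each: Ch25hKO, which lacks Ch25h, LXRdKO, which lacks both Nr1h3 (LXRα) and Nr1h2 (LXRβ), and wild type (WT). The strain of every sample was given as C57BL/6, and every library, WT included, came from LPS-treated cells, so the response to LPS itself cannot be read. The deleted alleles are not described in the sources used here, and nothing in the labels tells whether both libraries of a genotype are separate mice or cultures. The p-values therefore reflect the spread between libraries alone, and that spread may be technical. The fit took each gene's spread from its own libraries (3 residual degrees of freedom) and from all genes tested (median prior of 14.4). For a typical gene, the standard error, interval and p-value thus rest more on the spread over all genes than on its own.

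Total counts ranged from 41650513 to 45872964 per library. The 10 macrophage markers in the table summed to 17100 to 20680 CPM (read counts scaled to a common library size) in every library. The sums were 21.4 to 36.4 CPM for 10 dendritic cell markers, 2.74 to 4.56 CPM for 7 B cell markers and 22.8 to 38.6 CPM for 10 stromal markers. They were 4.03 to 5.40 CPM for 8 T and NK cell markers and 362.3 to 417.5 CPM for 8 neutrophil markers. Most of the neutrophil sum was Csf3r, at 322.0 to 377.4 CPM. Nr1h2 had 35 and 35 counts in the LXRdKO libraries, against 1292 and 1401 counts in WT. Nr1h3 had 42 and 41 counts in LXRdKO, against 710 and 756 counts in WT, so these libraries were low in the genes their label names. Values below are log2 fold changes ± standard error (2 libraries per genotype), and each adjusted p is from edgeR (quasi-likelihood, Benjamini-Hochberg over the 12923 genes). The comparisons with WT share their 2 WT libraries. In bulk RNA, fewer cells of one type and less RNA per cell cannot be told apart.

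The sequences just upstream of Ch25h, Cyp27a1 and Hsd3b7 are given because these are the 3 genes whose transcript differed between genotypes. Each runs 5′ to 3′ on the strand of its gene, from RefSeq on build GRCm38.p6, and covers the part of RefSeq's promoter window (250 bases before the start of the gene and 50 from it on) that lies upstream of the start in both that table and GENCODE. For Cyp27a1, RefSeq's gene record also holds a predicted transcript that begins further upstream. Capitals mark TGACGTCA, the cyclic AMP response element, in Ch25h, and GGGCGG, the GC box, in the other 2, where it lies on the opposite strand and reads CCGCCC.
Ch25h, chr19:34475165-34475398, minus strand: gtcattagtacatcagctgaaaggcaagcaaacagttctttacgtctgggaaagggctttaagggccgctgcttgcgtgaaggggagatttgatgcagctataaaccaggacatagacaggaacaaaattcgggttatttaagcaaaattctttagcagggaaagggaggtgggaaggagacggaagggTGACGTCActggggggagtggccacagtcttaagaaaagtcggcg
Cyp27a1, chr1:74713285-74713534, plus strand: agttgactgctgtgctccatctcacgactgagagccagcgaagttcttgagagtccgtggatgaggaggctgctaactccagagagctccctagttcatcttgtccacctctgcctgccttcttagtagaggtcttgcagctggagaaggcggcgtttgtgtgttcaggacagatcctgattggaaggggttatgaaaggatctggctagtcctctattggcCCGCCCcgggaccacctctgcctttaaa
Hsd3b7, chr7:127800359-127800603, plus strand: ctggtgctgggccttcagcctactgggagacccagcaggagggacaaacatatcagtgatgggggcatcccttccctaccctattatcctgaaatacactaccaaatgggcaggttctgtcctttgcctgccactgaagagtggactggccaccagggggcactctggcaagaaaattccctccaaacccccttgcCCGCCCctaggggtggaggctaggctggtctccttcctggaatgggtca

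A set of 9 motifs was searched on both strands of the 300-base windows of 4 of the genes (Cyp7b1 had no entry) and of all 32851 windows in the RefSeq table. TGACGTCA began at position -61 from the RefSeq start of Ch25h, and 588 windows (1.79%) held it. TATAAA, the TATA box, began at -151 in Ch25h and stood in 13.6% of windows. GGGCGG began at -28 in Cyp27a1 and at -54 in Hsd3b7, and 35.7% of windows held it. Neither the LXR-type direct repeat, 2 copies of AGGTCA 4 bases apart (0.0152% of windows), nor AGGTCA by itself, which lies within that repeat (16.3%), was found in the 4 windows. The same held for the interferon response motif (GAAA, 2 bases, GAAA, 3.44%), the NF-κB motif (GGGAA, 3 bases, CC, 5.78%), TGANTCA (AP-1, 7.81%) and TCACNCCAC (sterol response, 1.24%). A match or its absence describes the letters in this window only.

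Levels of different genes were set side by side per kilobase of merged exon (GENCODE M21, GRCm38, the same build as the mm10 of the deposited counts). In WT, Ch25h stood highest at 50.8 ± 0.303 CPM per kb, followed by Hsd3b7 at 5.80 ± 0.209, Gpr183 at 1.37 ± 0.329, Cyp27a1 at 1.34 ± 0.0453 and Cyp7b1 at 0.0157 ± 0.00718 CPM per kb (SD, n = 2). Ch25h lay above 93.2% of the 11629 tested genes with a known length, and Gpr183 and Cyp27a1 above 37.5% and 37.0% of them. Gpr183 and Cyp27a1 overlapped in WT, from 1.14 to 1.60 and from 1.30 to 1.37 CPM per kb, and were the only neighbours in the WT order that did. In LXRdKO, Cyp27a1 at 2.32 and 2.45 CPM per kb stood above Gpr183 at 1.29 and 1.32. In Ch25hKO, Ch25h dropped to 0.698 and 0.943 CPM per kb and stood below Cyp27a1 at 1.03 and 1.19. The merged exons of Hsd3b7 include retained introns and cover 2769 of its 3199 bp, which lowers its value per kb.

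**Figure D1:**
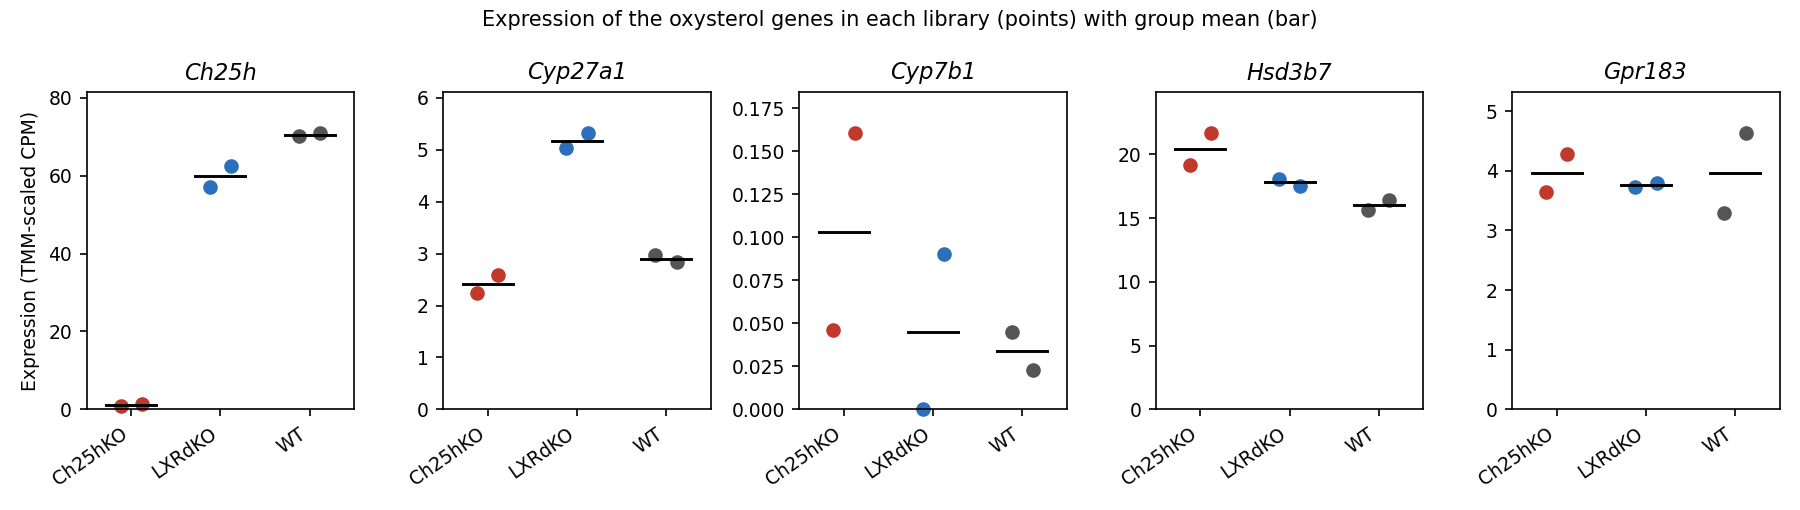
Expression of the 5 genes in TMM-scaled CPM (vertical axes, from 0, a separate scale for each gene) in each library (points), with the mean of each genotype (bar), for Ch25hKO, LXRdKO and WT from left to right. Ch25h is close to 0 only in Ch25hKO, Cyp27a1 stands apart in LXRdKO at 5.04 and 5.32 CPM, Cyp7b1 does not exceed 0.161 CPM, and the Gpr183 points of the 3 genotypes overlap.

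Ch25h, the cholesterol hydroxylase, was read first because it is the targeted gene (ENSMUSG00000050370.5, chromosome 19, 34473778 to 34475164, GRCm38, a single exon of 1387 bp). It had 42 and 57 counts in Ch25hKO, or 0.969 and 1.31 CPM, against 3120 and 3076 counts in WT, or 70.2 and 70.8 CPM. Both Ch25hKO libraries were thus far below every other library, at 1.61% of the WT level, which is a property of the knockout and checks the label. In LXRdKO it had 2509 and 2763 counts, or 57.2 and 62.5 CPM, below both WT libraries. Without the LXRs it fell to 84.9% of the WT level (-0.24 ± 0.06, 95% interval -0.36 to -0.11, edgeR adjusted p = 0.00566). Leaving out LXRdKO replicate 1 ended that call (-0.17, edgeR adjusted p = 0.129). Dendritic cell markers summed to 28.3 to 29.9 CPM in LXRdKO, against 36.0 to 36.4 CPM in WT. Of the 9 tested, 2 were called lower there, Ccr7 and Dpp4, and 0 higher, where 15.5% of all genes were called lower and 16.4% higher. Xcr1 (0.02) and Clec9a (0.19) did not pass. The part of dendritic cells in the level of Ch25h was not tested. Ch25h overlaps exons of an antisense RNA gene in GENCODE, and since no strand setting is given, reads of the overlap cannot be told apart.

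Cyp27a1, the sterol 27-hydroxylase, was the gene of the pathway that rose without the LXRs (ENSMUSG00000026170.6, chromosome 1, 74713574 to 74737892). It had 221 and 235 counts in LXRdKO, or 5.04 and 5.32 CPM, against 132 and 123 counts in WT, or 2.97 and 2.83 CPM. Both LXRdKO libraries exceeded all other libraries, and the groups did not overlap. The rise was 1.78-fold (0.83 ± 0.14, 95% interval 0.55 to 1.12, edgeR adjusted p = 0.000134). In this comparison 31.8% of tested genes were called, 16.4% upward and 15.5% downward, so the calls of 2 of the 4 tested oxysterol genes, Cyp27a1 up and Ch25h down, are to be read against that share. The groups did not overlap for 63.6% of tested genes, and for 3 of the 4, Gpr183 being the exception.

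In Ch25hKO, Cyp27a1 was not called. It had 97 and 113 counts in Ch25hKO, or 2.24 and 2.59 CPM, both under the 2 WT values, and did not pass the test (-0.27 ± 0.15, 95% interval -0.58 to 0.05, edgeR adjusted p = 0.18). The interval allows a lower level of up to 0.58 on the log2 scale. Between the knockouts, Cyp27a1 was 2.14-fold higher in LXRdKO than in Ch25hKO (1.10 ± 0.14, 95% interval 0.80 to 1.39, edgeR adjusted p = 5.73e-06), the test of the difference between the 2 knockouts. In it 37.9% of genes were called, 19.3% upward and 18.6% downward, and groups did not overlap for 71.2%.

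The balance between the 2 hydroxylase transcripts was also read within each library. The ratio of Ch25h to Cyp27a1 per kb was 17.8 and 18.4 in LXRdKO, against 37.0 and 39.2 in WT. In Ch25hKO it was 0.678 and 0.790, so that Cyp27a1 was the more abundant of the 2 transcripts per kb only where Ch25h was deleted. The ratio does not depend on how libraries are scaled. Beside this result, 8 of 10 macrophage markers also rose in LXRdKO, where 16.4% of all genes did, but 5 rose without LXRdKO replicate 1 and 5 without LXRdKO replicate 2. The markers had a summed level of 20500 and 20680 CPM in LXRdKO, against 17150 and 18610 CPM in WT. Most of this sum was Lyz2, at 12940 and 12780 CPM in LXRdKO, against 11830 and 10460 CPM in WT. The rise of Lyz2 lost its call with only the 4 libraries compared (0.198) and was 0.107 without WT replicate 2. The part of the macrophage markers in the rise of Cyp27a1 was not tested.

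**Figure D2:**
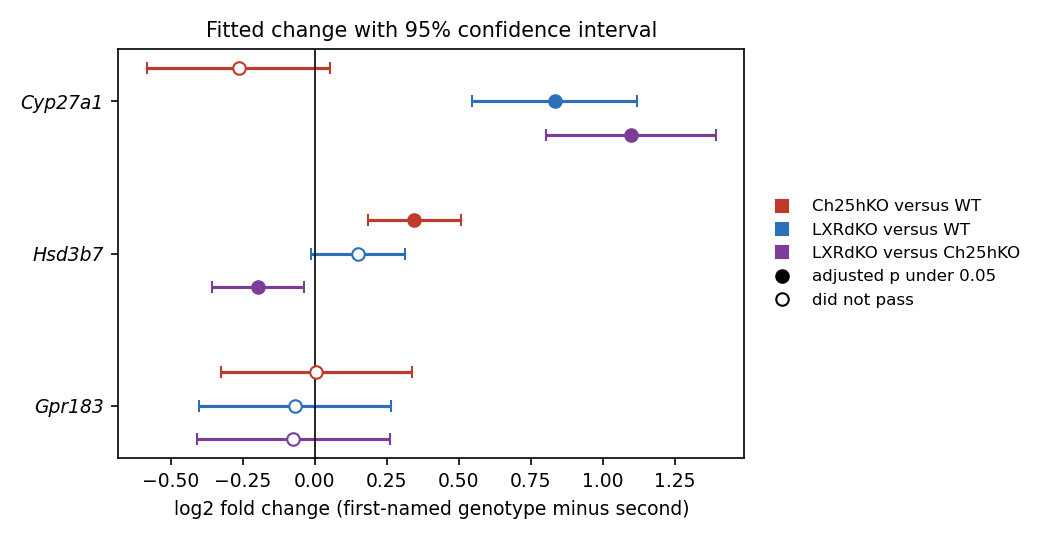
Log2 fold changes (horizontal axis, first-named genotype minus second) of Cyp27a1, Hsd3b7 and Gpr183 with 95% confidence intervals from edgeR, in 3 comparisons marked by colour; filled points passed an adjusted p of 0.05. Cyp27a1 is shifted to the right in both comparisons of LXRdKO, Hsd3b7 lies between -0.20 and 0.35, and all 3 intervals of Gpr183 include 0.

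Cyp7b1, the enzyme that turns 25-hydroxycholesterol into the Gpr183 ligand, was barely detected (ENSMUSG00000039519.6, chromosome 3, 18071950 to 18243338). It had 2 and 7 counts in Ch25hKO, 0 and 4 counts in LXRdKO and 2 and 1 counts in WT, and it did not pass the filter on low counts. Every library stood at 7 counts or fewer out of at least 41650513. The exact Poisson intervals, which cover counting error only, ran from 0.0487 to 0.202 CPM of summed counts in Ch25hKO, from 0.0120 to 0.113 in LXRdKO and from 0.00702 to 0.0994 in WT. The summed counts of 9 in Ch25hKO, against 3 in WT, give a ratio of 3.13 with a 95% counting interval of 0.781 to 18.0, and those of 4 in LXRdKO, against 3 in WT, a ratio of 1.30 (0.220 to 8.87). No difference was detectable at this depth. Fitted with no filter on low counts, Cyp7b1 was at 1.54 ± 1.17 in Ch25hKO (edgeR adjusted p = 0.372) and 0.39 ± 1.36 in LXRdKO (edgeR adjusted p = 0.896).

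Hsd3b7, the dehydrogenase that acts on the products of Cyp7b1, was the one gene of the pathway besides Ch25h itself that was called in Ch25hKO (ENSMUSG00000042289.11, chromosome 7, 127800604 to 127803802). It had 830 and 944 counts in Ch25hKO, or 19.1 and 21.7 CPM, against 695 and 715 counts in WT, or 15.6 and 16.5 CPM. Both Ch25hKO libraries were above all other libraries. The rise was 1.27-fold (0.35 ± 0.08, 95% interval 0.18 to 0.51, edgeR adjusted p = 0.00157), in a comparison in which 39.3% of genes were called, 19.8% upward and 19.5% downward, and in which groups did not overlap for 68.3% of genes. Without Ch25hKO replicate 2 it did not pass (0.25, edgeR adjusted p = 0.0537). In LXRdKO it had 792 and 776 counts, or 18.1 and 17.6 CPM, between the other groups without overlap, and did not pass against WT (0.15 ± 0.08, 95% interval -0.01 to 0.31, edgeR adjusted p = 0.156). The difference between LXRdKO and Ch25hKO lay at the threshold (-0.20 ± 0.08, edgeR adjusted p = 0.0495), and that call was lost with DESeq2, with limma-voom, with RLE scaling and without Ch25hKO replicate 2 (-0.105, edgeR adjusted p = 0.457), LXRdKO replicate 1 (-0.217) or LXRdKO replicate 2 (-0.177).

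Hsd3b7 shares exon sequence with 2 other annotated genes, one on each strand, so part of its reads cannot be told apart from theirs. Beside its rise in Ch25hKO, 6 of 8 tested stromal markers rose there and 1 fell, where 19.8% of all genes were called higher and 19.5% lower. Stromal markers had a summed level of 35.7 to 38.6 CPM in Ch25hKO, against 24.4 to 25.4 CPM in WT. The rise of Col3a1 lost its call with RLE scaling (1.331), upper-quartile scaling (1.341) and DESeq2 (1.336). It was 0.672 without Ch25hKO replicate 1. The rise of Pdgfra lost its call with DESeq2 (1.269) and was 1.011 without Ch25hKO replicate 2. Of 9 tested dendritic cell markers, 3 fell in Ch25hKO (Xcr1, Ccr7 and Clec9a) and 0 rose, with summed levels of 21.4 to 22.02 CPM in Ch25hKO, against 36.0 to 36.4 CPM in WT. The part of these cells in the level of Hsd3b7 was not tested.

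The ratio of Ch25h to Hsd3b7 per kb set a synthetic enzyme over one that clears the products of Cyp7b1. It was 0.101 and 0.120 in Ch25hKO, where Ch25h is deleted, so these low values follow from the knockout. In WT the ratio was 8.96 and 8.59, and in LXRdKO it was 6.32 and 7.11, below both WT libraries. The ratio in LXRdKO thus combined a lower Ch25h level with an Hsd3b7 level that did not pass the test.

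Gpr183, the receptor, showed no detectable difference between genotypes (ENSMUSG00000051212.8, chromosome 14, 121952551 to 121965195). It had 158 and 187 counts in Ch25hKO, or 3.64 and 4.29 CPM, 164 and 168 counts in LXRdKO, or 3.74 and 3.80 CPM, and 146 and 201 counts in WT, or 3.29 and 4.63 CPM. The 2 WT libraries held both the lowest and the highest value, and all groups overlapped. The log2 fold change was 0.01 ± 0.16 in Ch25hKO (95% interval -0.33 to 0.34, edgeR adjusted p = 0.984) and -0.07 ± 0.16 in LXRdKO (95% interval -0.40 to 0.27, edgeR adjusted p = 0.784). These intervals allow differences of up to their bounds. Between LXRdKO and Ch25hKO it was -0.07 ± 0.16 (edgeR adjusted p = 0.757). The sign turned when 1 library was left out, from -0.22 without WT replicate 1 to 0.26 without WT replicate 2 in Ch25hKO, and from -0.30 to 0.18 without the same libraries in LXRdKO. The gene lies within the span of Ubac2 on the opposite strand, with no shared exon.

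Gpr183 is known from B cells and dendritic cells, and some of their markers were at levels like its own or above. Of 9 tested dendritic cell markers, 3 fell (Xcr1, Ccr7 and Clec9a) and 0 rose in Ch25hKO, where 19.5% of all genes were called lower. In LXRdKO 2 fell (Ccr7 and Dpp4) and 0 rose, where 15.5% were called lower. Xcr1 stood at 4.64 and 4.95 CPM in Ch25hKO and 13.1 and 14.6 CPM in LXRdKO, against 14.5 and 12.8 CPM in WT. Itgax stood at 5.56 and 5.48 CPM in Ch25hKO and 5.10 and 4.66 CPM in LXRdKO, against 4.88 and 6.15 CPM in WT. Of 7 B cell markers in the table, 4 did not pass the filter, with at most 8 counts in any library. Of the 3 tested, Cd22 rose in LXRdKO, with 175 and 179 counts there, against 93 and 71 counts in WT (1.11 ± 0.17, edgeR adjusted p = 6.25e-05). Cd79b fell there (-1.39 ± 0.47, edgeR adjusted p = 0.0315), but did not pass when either LXRdKO library (-1.87 and -1.03) or WT replicate 1 (-1.37) was left out, nor by DESeq2 (-1.41), and Ms4a1 did not pass. The part of these cells in the level of Gpr183 was not tested.

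**Figure D3:**
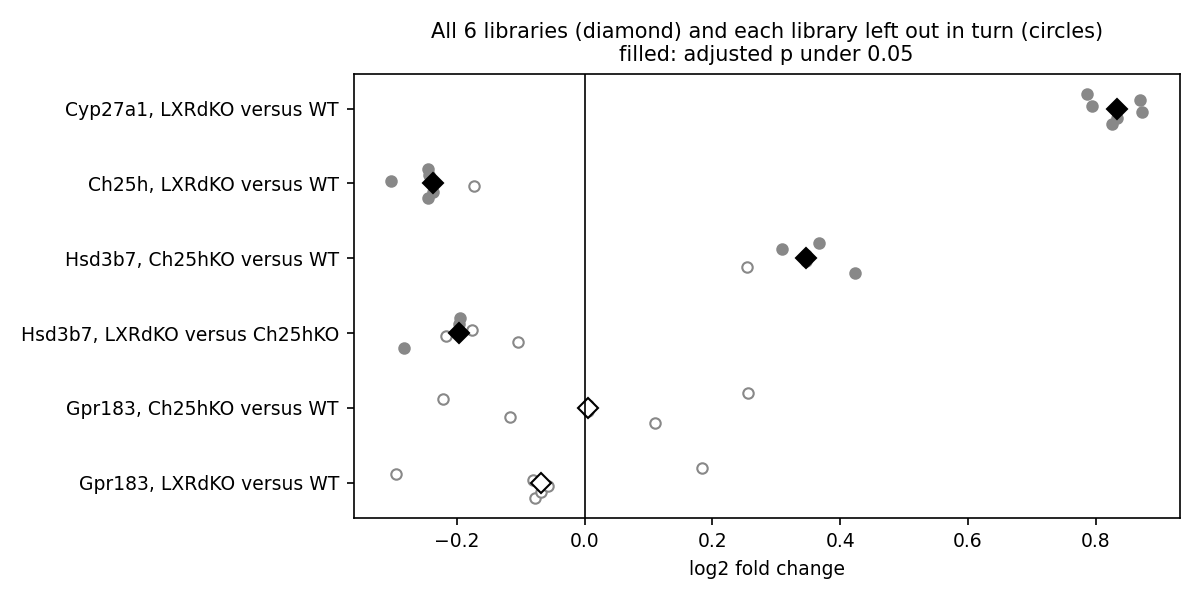
Log2 fold change (horizontal axis) in 6 gene and comparison pairs with all 6 libraries (black diamonds) and with each library left out in turn (grey circles); filled symbols passed an adjusted p of 0.05. Cyp27a1 in LXRdKO stays between 0.79 and 0.87, Ch25h in LXRdKO and Hsd3b7 in Ch25hKO each lose the call in 1 of 6 fits, and Gpr183 falls on both sides of 0.

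The genes whose level over the 6 libraries was most like that of each oxysterol gene were found by Pearson's r of log2(CPM + 1), as a description over 3 pairs of libraries. For Cyp27a1 these were Foxj2 (r = 0.9986), Tmem219 (r = 0.9985) and Selplg, which encodes the selectin ligand PSGL-1 (r = 0.9980), with Selplg at 161.5 and 164.8 CPM in LXRdKO and 118.3 and 117.4 CPM in WT, beside 106.8 and 112.5 CPM in Ch25hKO. Many genes shared this likeness, since 615 of 7646 genes searched had an r over 0.9 with Cyp27a1. For Hsd3b7 they were the transcription factor genes Usf2 (r = 0.9960) and Ets1 (r = 0.9935) and Tmem9b (r = 0.9922), with 281 genes over 0.9. For Gpr183 only 4 genes exceeded 0.9, led by Zfp326 (r = 0.9571), Dpm1 (r = 0.9440) and Flad1 (r = 0.9163), and each of these had its lowest level in WT replicate 1.

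Other genes of the wider pathway were read as 6 lists. Of 9 sterol hydroxylases in the table, 5 did not pass the filter and had at most 7 counts in any library. These were Cyp7b1, Cyp46a1 (the brain 24-hydroxylase), Cyp11a1 (side chain cleavage), Cyp7a1 (the rate-limiting enzyme of bile acid synthesis) and Cyp8b1, which had 0 counts throughout. Besides Ch25h and Cyp27a1, Cyp39a1, a hydroxylase of 24-hydroxycholesterol, had 20 to 35 counts and passed in neither knockout (-0.41 ± 0.32 in Ch25hKO and -0.45 ± 0.32 in LXRdKO, edgeR adjusted p = 0.332 and 0.301). Cyp51, a demethylase of cholesterol synthesis, rose in Ch25hKO (4.14 ± 0.08, edgeR adjusted p = 8.58e-18) and by 0.36 in LXRdKO (edgeR adjusted p = 0.00226), the second call being lost without LXRdKO replicate 2 (0.295, edgeR adjusted p = 0.0616).

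Beyond Hsd3b7, no gene of the bile acid route passed the test in either knockout. Of 16 genes listed from Hsd3b7 onward and for oxysterol inactivation, 8 were tested. Over all genes tested, 39.3% were called in Ch25hKO and 31.8% in LXRdKO. In Ch25hKO 1 rose, Hsd3b7, and 0 fell, with a median of 0.06, against 0.01 over all genes tested. Leaving out WT replicate 1 gave 2 up and 1 down there, and leaving out Ch25hKO replicate 2 gave 0 and 0. In LXRdKO 0 rose and 0 fell, with a median of -0.01, and 1 gene, Hsd17b4, fell without WT replicate 2 (-0.179, edgeR adjusted p = 0.0361). Hsd17b4 and Scp2, peroxisomal enzymes that shorten the sterol side chain, had 1357 to 1661 and 1268 to 1416 counts. The 8 not tested had at most 9 counts in any library, among them Sult2b1, a sulfotransferase for oxysterols, with 2 and 4 counts in Ch25hKO, 0 and 0 in LXRdKO and 4 and 6 in WT.

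Proteins that serve these P450 enzymes were read next. Of 9 tested genes for electron donors and cholesterol delivery, 4 were called in Ch25hKO (3 higher, 1 lower), where 39.3% of all genes were called, and 4 in LXRdKO (2 higher, 2 lower), where 31.8% were, so both counts are near the background. In LXRdKO 1 rose and 1 fell without LXRdKO replicate 2, and 2 rose and 1 fell without LXRdKO replicate 1 or WT replicate 1. The changes had medians of 0.10 and -0.02 (over all genes 0.01 and 0.00). Fdx1 and Fdxr, which carry electrons to mitochondrial P450 enzymes such as Cyp27a1 and were named for that role after their values were seen, passed in neither knockout, with Fdx1 at -0.09 ± 0.12 in Ch25hKO and -0.02 ± 0.11 in LXRdKO. Por, the reductase for P450 enzymes of the endoplasmic reticulum such as Cyp7b1, was at 174 and 182 CPM in Ch25hKO, against 222 and 203 CPM in WT. It fell there by 0.26 ± 0.06 (edgeR adjusted p = 0.00116) and in LXRdKO by 0.19 ± 0.06 (edgeR adjusted p = 0.0147). The second call was lost without WT replicate 1 (-0.122), LXRdKO replicate 1 (-0.191) or LXRdKO replicate 2 (-0.181). Tspo, an outer mitochondrial membrane protein that binds cholesterol, had the lowest p of the list in LXRdKO. It stood at 308.8 and 311.8 CPM in LXRdKO, against 239.3 and 244.5 CPM in WT (0.36 ± 0.05, edgeR adjusted p = 5.75e-05), and did not pass in Ch25hKO (0.10 ± 0.05). Cyb5, a cytochrome that passes electrons to some P450 enzymes, fell in LXRdKO by 0.28 ± 0.06 (edgeR adjusted p = 0.00117). In Ch25hKO it rose (0.17 ± 0.06, edgeR adjusted p = 0.0222), a call lost without WT replicate 1 (0.107) or either Ch25hKO replicate (0.131 and 0.202) and with DESeq2 (0.156). Stard4, a cholesterol carrier that is a sterol-regulated gene, rose 20.9-fold in Ch25hKO and 1.69-fold in LXRdKO (0.76 ± 0.18, edgeR adjusted p = 0.00317, lost without LXRdKO replicate 2), and Stard5, a related carrier, rose in Ch25hKO (0.50 ± 0.06, edgeR adjusted p = 1.55e-06), was at -0.08 ± 0.06 in LXRdKO and was lower in LXRdKO than in Ch25hKO (-0.57 ± 0.06, edgeR adjusted p = 2.11e-07).

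Of 17 tested genes for oxysterol-binding and sterol-sensing proteins, 4 rose and 3 fell in Ch25hKO and 3 rose and 1 fell in LXRdKO, with medians of -0.03 and 0.00 (over all genes 0.01 and 0.00). These 7 and 4 called genes are to be read against 39.3% and 31.8% of all genes called. Insig1, an oxysterol-binding protein that retains SREBPs in the endoplasmic reticulum, stood at 124.0 and 133.5 CPM in Ch25hKO, against 20.95 and 21.5 CPM in WT (6.07-fold, edgeR adjusted p = 4.19e-16). Osbpl3 rose by 0.68 ± 0.06 (edgeR adjusted p = 5.87e-08) and Osbpl8 fell by 0.35 ± 0.05 (edgeR adjusted p = 4.02e-05), both members of the oxysterol-binding protein family. The fall of Osbp2 (-1.01 ± 0.24, edgeR adjusted p = 0.0025) was lost without Ch25hKO replicate 1 (-0.729). In LXRdKO, Insig2, the second Insig, fell by 0.25 ± 0.06 (edgeR adjusted p = 0.00328), a call lost without LXRdKO replicate 1 (-0.191). These counts moved with single libraries. With one left out, 2 rose and 1 fell in Ch25hKO without Ch25hKO replicate 1, and 2 and 3 without WT replicate 2. In LXRdKO 0 rose and 0 fell without LXRdKO replicate 1, 0 and 1 without LXRdKO replicate 2, 1 and 3 without WT replicate 2, and 1 and 1 without Ch25hKO replicate 1.

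Among the 11 receptors for oxysterols and bile acids, 6 were tested. Outside the deleted LXR genes, S1pr2, which encodes a sphingosine 1-phosphate receptor that also binds conjugated bile acids, stood at 75.1 and 84.3 CPM in Ch25hKO, against 115 and 106 CPM in WT. It fell by 0.47 ± 0.06 there (edgeR adjusted p = 9.03e-06), was at 0.00 ± 0.06 in LXRdKO, and differed between the knockouts (0.47 ± 0.06, edgeR adjusted p = 7.88e-06). Vdr, the vitamin D receptor, was at 0.807 and 0.849 CPM in Ch25hKO and 1.16 and 1.31 CPM in LXRdKO, against 2.27 and 2.35 CPM in WT, and fell in both knockouts (-1.48 ± 0.21 and -0.90 ± 0.20, edgeR adjusted p = 2.44e-05 and 0.00189). In Ch25hKO neither LXR gene passed, with Nr1h3 at 0.20 ± 0.08 (edgeR adjusted p = 0.0536) and Nr1h2 at 0.13 ± 0.07 (edgeR adjusted p = 0.144). Both passed without WT replicate 2 (0.245 and 0.189), and Nr1h3 also with limma-voom (0.199) and with no filter on low counts (0.211).

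Gpr183 was also set beside 20 tested leukocyte guidance receptors. Of these, 9 rose and 5 fell in Ch25hKO, where 19.8% of all genes were called higher and 19.5% lower, and 11 rose and 4 fell in LXRdKO, where 16.4% and 15.5% were. The medians were 0.09 in Ch25hKO and 0.31 in LXRdKO, against 0.01 and 0.00 over all genes. DESeq2 ended the calls of S1pr1 (0.268) and Ccr3 (0.312) in Ch25hKO and that of Cxcr3 (-0.558) in LXRdKO. In Ch25hKO, P2ry6 was 0.182 without Ch25hKO replicate 2 (0.217 with all libraries). P2ry12 was -0.366 there without WT replicate 2 (-0.466 with all libraries). Several of the 20 receptors were called in the same direction in both knockouts, which share their WT libraries. The complement receptor gene C5ar1 rose by 0.80 in Ch25hKO and 0.61 in LXRdKO (edgeR adjusted p = 2.18e-09 and 8.76e-08), and the formyl peptide receptor gene Fpr1 rose by 0.66 and 0.51 (edgeR adjusted p = 8.67e-08 and 3.33e-06). Ccr7, which guides cells to lymph nodes, fell by 0.79 in Ch25hKO and 1.18 in LXRdKO (edgeR adjusted p = 1.28e-05 and 2.55e-07). The nucleotide receptor gene P2ry2 rose by 0.81 in Ch25hKO (edgeR adjusted p = 1.26e-08), was at 0.10 ± 0.06 in LXRdKO, and differed between the knockouts (-0.72 ± 0.06, edgeR adjusted p = 3.58e-08). The chemokine receptor gene Ccr1 rose by 0.88 in LXRdKO and Ccr2, a receptor for monocyte attractants, fell there by 0.94 (edgeR adjusted p = 4.18e-08 and 9.44e-07), and neither passed in Ch25hKO (0.09 ± 0.07 and 0.08 ± 0.09). Both differed between LXRdKO and Ch25hKO (0.79 ± 0.07 and -1.02 ± 0.10, edgeR adjusted p = 7.4e-08 and 1.63e-07).

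**Figure D4:**
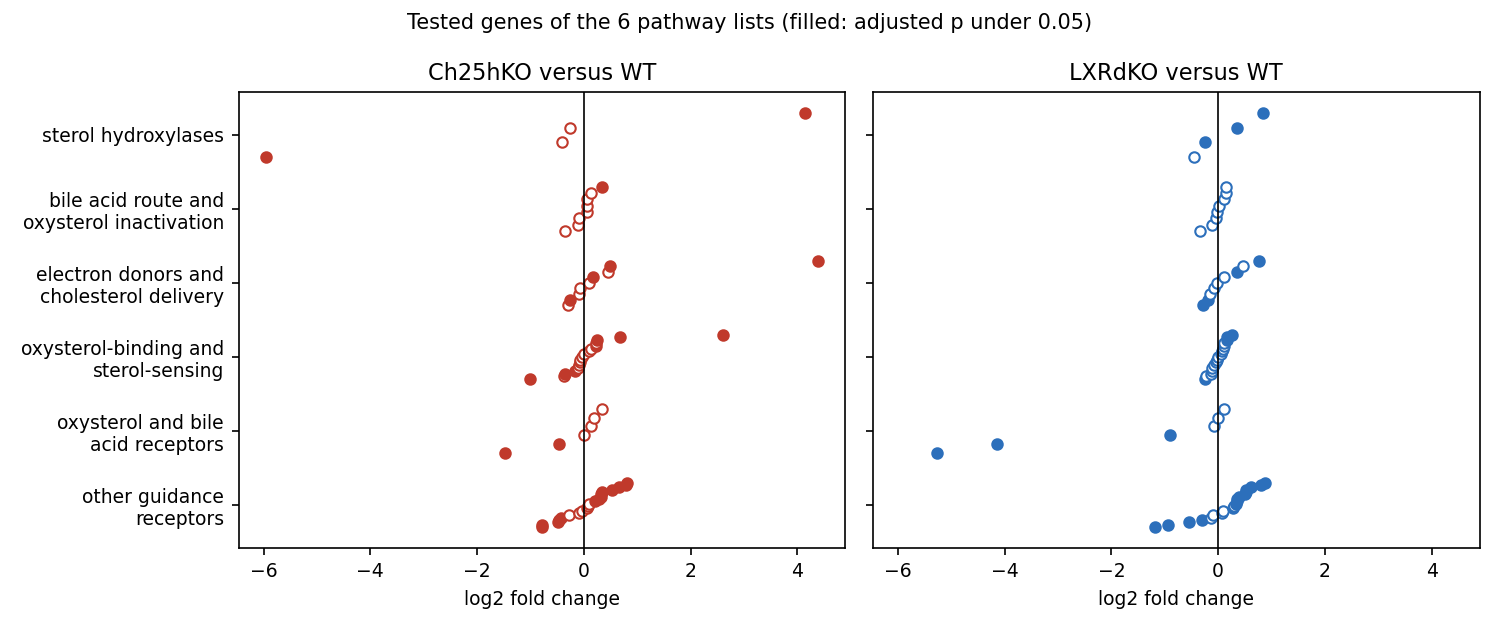
Log2 fold change (horizontal axis, the same for both panels) of every tested gene in 6 pathway lists, in Ch25hKO versus WT (left) and LXRdKO versus WT (right); filled points passed an adjusted p of 0.05. The far points are Ch25h, Cyp51, Stard4 and Insig1 on the left and Nr1h2 and Nr1h3 on the right. The list for the bile acid route from Hsd3b7 onward and oxysterol inactivation has 1 filled point, Hsd3b7, on the left and none on the right.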

How the data were processed

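Total RNA of 6 samples was sequenced, 1 library each. The authors deposited raw read counts with no normalization, 1 column per library. The submitters' processing notes name CASAVA, STAR 2.3.0, HTSeq and build mm10. Libraries were made from 100 ng of RNA with the Ovation kit, an amplification kit, per the labels' protocols, so reads are not independent molecules and counting intervals cover counting error only. No source used here gives the annotation, the counting mode or the strand setting.

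Genes were kept with edgeR's filterByExpr (12923 of 23337 symbols, 99.98% of counts), scaled by TMM and fitted with edgeR 4.0.16 (R 4.3.3) with 1 mean per genotype over all 6 libraries and robust quasi-likelihood dispersions, tested on simulated data first. The standard error is the log2 fold change divided by the square root of F. Calls use an adjusted p under 0.05. Alternatives used RLE or upper-quartile scaling, DESeq2 1.42.0, limma-voom (limma 3.58.1), other filters, only the libraries compared, a replicate block and each library left out.

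The genes followed, the 6 pathway lists and the marker lists were chosen by name with earlier results of these data known. Named list genes are, per list, the 4 non-members with the lowest p in a comparison, plus the deleted LXR genes. Fdx1, Fdxr, cell type markers, genes under the filter and guidance receptors whose values moved between fits were named outside that rule. Genes of like pattern needed a mean of at least 5 CPM, and unnamed models were left out. Exon lengths and coordinates are from GENCODE M21 and promoter windows from RefSeq.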

Additional observations from a re-analysis of the deposited data

How the results depend on the processing

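The rise of Cyp27a1 in LXRdKO, against WT and against Ch25hKO, kept its direction and call in all 13 alternatives that could fit it, from 0.79 to 0.87 and from 0.997 to 1.21. A filter of at least 5 CPM in 2 libraries left no value for Cyp27a1 or Gpr183. The cause of the changes below was not tested. In Ch25hKO versus WT, Gpr183 changed sign with DESeq2 and RLE scaling (-0.009 each) and upper-quartile scaling (-0.004), none past the test. In LXRdKO versus Ch25hKO, Hsd3b7 lost its call with DESeq2 and RLE scaling (-0.189 each) and limma-voom (-0.194). Leaving out 1 library at a time, the lone library of a genotype being assumed to vary like the other groups, gave 0.25 to 0.42 for Hsd3b7 in Ch25hKO versus WT and -0.28 to -0.105 in LXRdKO versus Ch25hKO, -0.30 to -0.17 for Ch25h in LXRdKO versus WT, and, for Gpr183, -0.22 to 0.26 in Ch25hKO versus WT, -0.30 to 0.18 in LXRdKO versus WT and -0.187 to 0.048 in LXRdKO versus Ch25hKO. Over all genes it gave 1501 to 2478 higher in Ch25hKO versus WT (2557 with all libraries), 1292 to 2097 higher and 1198 to 2232 lower in LXRdKO versus WT (2116 and 1999), and 1504 to 2828 lower in LXRdKO versus Ch25hKO (2406). Same-numbered libraries share only a number: their deviations correlated at -0.105 between Ch25hKO and WT, -0.013 between LXRdKO and WT and 0.025 between LXRdKO and Ch25hKO. The replicate block ended the call of Hsd3b7 in LXRdKO versus Ch25hKO (-0.195, edgeR adjusted p = 0.0597) and no other call of the 5 genes, and crossed numbers, a pairing added after the data were seen, gave 2682 higher and 2638 lower genes in Ch25hKO versus WT, against 2372 and 2393 with the block as numbered and 2557 and 2516 without a block. Depth limits Cyp7b1, with at most 7 counts in a library, and 2 libraries per genotype limit Gpr183.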

Other observations

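Markers of 2 further cell types were read as values. Of 6 tested neutrophil markers, 2 rose and 0 fell in Ch25hKO (19.8% and 19.5% of all genes), but 1 rose and 0 fell when any single library other than WT replicate 2 was left out. In LXRdKO 1 rose and 4 fell (16.4% and 15.5% of all genes), but 0 rose and 2 fell without either LXRdKO replicate, and 1 rose and 1 fell with DESeq2. The 8 markers in the table summed to 417.5 CPM in both Ch25hKO libraries, 387.1 to 397.3 CPM in LXRdKO and 362.3 to 374.7 CPM in WT. Most of this sum was Csf3r, at 365.2 and 362.4 CPM in Ch25hKO and 367.8 and 377.4 CPM in LXRdKO, against 322.0 and 335.2 CPM in WT, so the sum in LXRdKO runs opposite to the 4 markers that fell. T and NK cell markers summed to 4.15 to 4.54 CPM in Ch25hKO, 4.03 to 4.60 CPM in LXRdKO and 4.17 to 5.40 CPM in WT. Of the 3 tested, 1 fell in each knockout, and 0 fell in Ch25hKO without WT replicate 1 (1 rose) or Ch25hKO replicate 2, and in LXRdKO without LXRdKO replicate 1. The part of these cells in the oxysterol genes was not tested.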
